A study of Mus musculus with 6 samples.

Results

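The genes described here are direct transcriptional targets of the tumour suppressor p53, followed in whole mammary tumours of mice dosed with vehicle or with TMP195, an inhibitor of the class IIa histone deacetylases. The set holds 10 genes: Cdkn1a, Bax, Bbc3, Pmaip1, Mdm2, Ccng1, Trp53inp1, Zmat3, Phlda3 and Eda2r. A gene was read from the array row whose annotation names that gene alone, and the row with the highest mean would have stood for a gene with several. Of the 10 genes, 8 were found in this way, among 19937 genes measured on the array, and each had a single row. The row that names Cdkn1a also names another gene, so it was not used, and no annotated row used here names Bax.

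The study took 1 tumour from each of 6 female FVBN mice, 3 per group. All mice carried the MMTV-PyMT transgene, which places the middle T antigen of polyoma virus under a promoter that is active in mammary epithelium, so the vehicle tumours arose from the same oncogene as the treated ones. Tumour burden was assessed at an age of 75 to 90 days, before dosing. The mice received either DMSO, the vehicle, or TMP195 at 50 mg/kg once daily into the abdominal cavity. The sources disagree on the length of dosing, which is 5 days in one and 2 weeks in another. The arrays measured RNA of the whole tumour, with its stroma, vessels, immune cells, fat and muscle, so fewer cells of a type and less RNA per cell cannot be told apart. Epithelial markers were bright in every tumour: the mean log2 intensity of 10 of 10 markers, Epcam and Krt8 among them, lay between 10.27 and 10.37.

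The p53 protein is a transcription factor that is kept at a low level by constant degradation and accumulates after DNA damage, oncogene activity or other stress. Its targets halt the cell cycle, promote cell death, restrain growth signals and shut p53 off again through negative feedback. In tumours driven by an oncogene, p19Arf, one of the proteins encoded by Cdkn2a, can raise p53 by holding back Mdm2, the ubiquitin ligase that marks p53 for degradation.

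The p53 protein binds DNA as a tetramer, and its sites are built from half-sites that match a consensus of 10 bases and are often found in adjacent pairs. The promoter windows of RefSeq (GRCm38.p6), which run from 250 bases before to 50 bases after an annotated transcription start, were searched for this half-site consensus. The consensus and its core CATG read the same on both strands, and some half-sites contain that core, so the matches overlap. Of the 10 genes, 7 had a window in the table, with 10 windows between them, and 4 genes had a half-site, in 1 window each, where 8.36% of all 32851 windows of this length held one. CATG was found in 4 of the 10 windows and in 61.1% of all windows. The stretches of 60 bases around these matches show where the letters lie before the start, with each half-site in capitals.
Cdkn1a, chr17:29090903-29090962, plus strand: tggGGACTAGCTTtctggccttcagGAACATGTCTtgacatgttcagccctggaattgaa
Bax, chr7:45467065-45467124, minus strand: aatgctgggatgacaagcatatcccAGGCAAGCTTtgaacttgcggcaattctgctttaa
Mdm2, chr10:117710910-117710969, minus strand: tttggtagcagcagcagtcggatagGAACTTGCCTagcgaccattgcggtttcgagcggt
Ccng1, chr11:40755437-40755496, minus strand: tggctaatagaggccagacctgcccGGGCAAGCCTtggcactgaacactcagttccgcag
The match in Mdm2 began 186 bases before its start and that in Ccng1 185 bases before. In Cdkn1a the second match began 51 bases before the start of one of its 2 annotated windows. The windows of Bbc3, Phlda3 and Eda2r held no half-site, which says only that these letters are not in this stretch. Pmaip1, Trp53inp1 and Zmat3 have no entry in the table. A match is a description of the sequence and no evidence of binding in these tumours.

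Median intensity per array lay between 44.8 and 46.4, and precision is limited by having 3 arrays in each group. A pair of tumours stood apart from the rest. TMP195 tumour 2 was the highest tumour for 25.4% of all genes and vehicle tumour 2 for 24.2%, and the other 4 tumours for 10.4% to 15.3% each. The difference of each p53 target is therefore also given with each of these tumours left out. Expression values are log2 intensities unless stated otherwise, and a difference is TMP195 minus vehicle, tested with limma over all 19937 genes with Benjamini-Hochberg adjustment.

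None of the 8 p53 targets passed the test between the dosing groups. Their differences ran from -0.09 for Bbc3 to 0.23 for Zmat3, with 5 above 0 and 3 below, where 49.5% of all genes lay above 0. The median over the 8 genes was 0.036, beside -0.0014 over all genes. It was 0.059 without vehicle tumour 2 and 0.15 without TMP195 tumour 1, and it turned to -0.13 without TMP195 tumour 2 and to -0.023 without vehicle tumour 1. No member passed an adjusted p of 0.05 in limma, in which 0% of all genes passed, and every member had an adjusted p of 1.00. None reached an unadjusted p of 0.05 either (2.52% of all genes did), and the smallest was 0.285, for Zmat3. All 8 members lay above the 30th percentile of mean intensity, the filter tried as an alternative. Bbc3, Eda2r and Pmaip1 were dim, at percentiles 38.5, 39.5 and 41.8. The groups overlapped in 8 of 8 members, and they did not overlap in 6.68% of all genes. The 95% intervals were from 0.26 wide on either side for Bbc3 to 0.76 for Mdm2. A smaller difference with the same spread would have had an interval that includes 0. These intervals are not adjusted for the number of genes, so larger differences could also go undetected in the adjusted test. No gene passed it, although differences over all genes ran from -1.97 to 1.84.

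**Figure D1:**
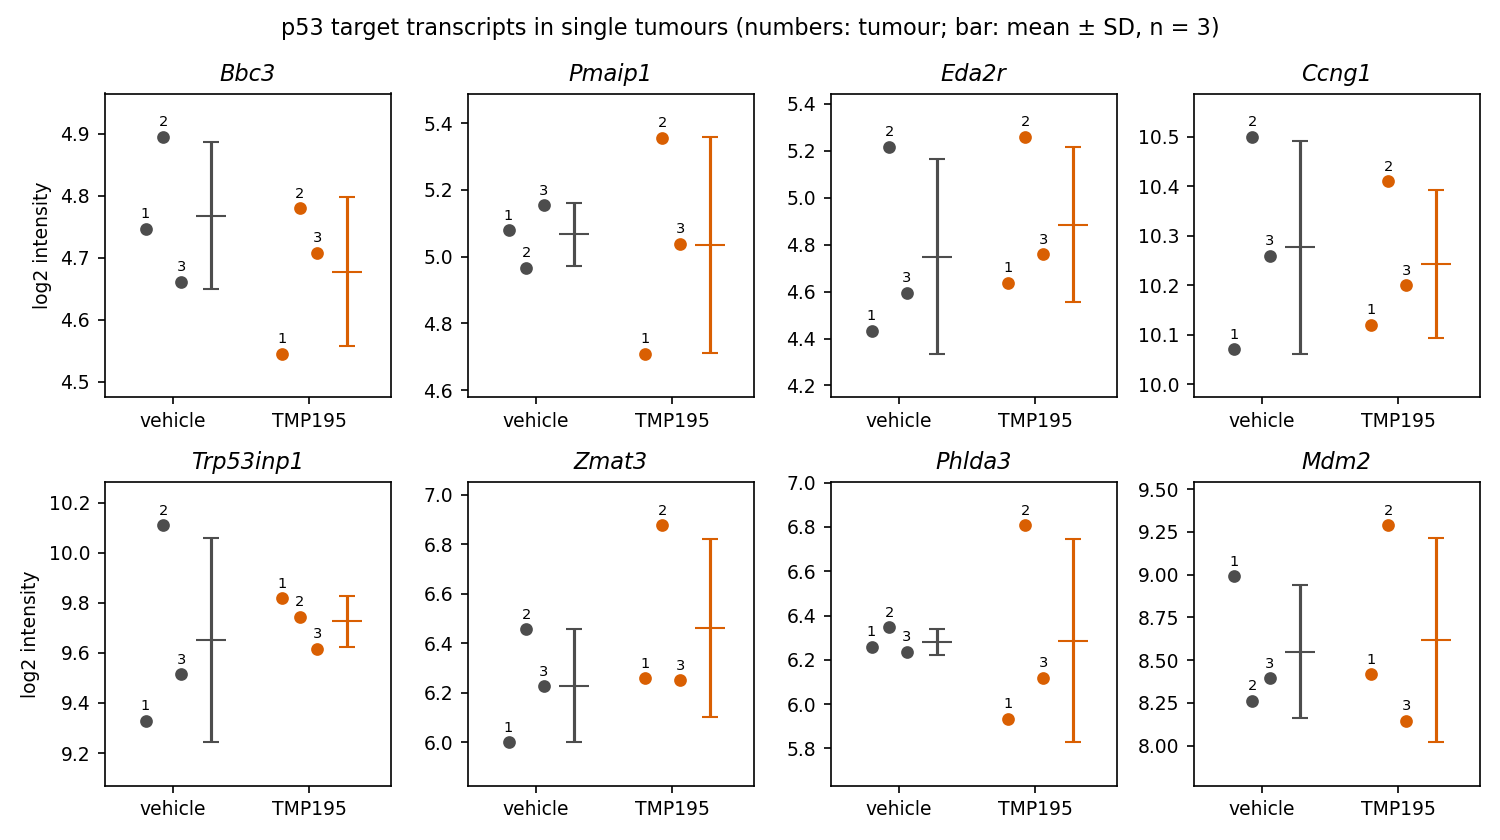
Log2 intensity of the 8 measured p53 targets in each tumour, in 1 panel per gene with its own axis range; points carry the tumour number, and bars give the mean ± SD of 3 tumours. The groups overlap in every panel, and TMP195 tumour 2 is the highest point for Pmaip1, Eda2r, Zmat3, Phlda3 and Mdm2.

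The pro-death targets came first in the comparison. Bbc3 encodes PUMA, a protein that binds and neutralises the survival members of the BCL2 family. In the order of tumours 1, 2 and 3, which is kept below, it measured 4.75, 4.89 and 4.66 under vehicle and 4.55, 4.78 and 4.71 under TMP195. Its mean intensity ranked at percentile 38.5 of all genes. All 6 values lay within 0.35 of each other, a narrower range than for any other member, and the difference was -0.09 ± 0.11 (SE, n = 3 per group, limma adjusted p = 1.00). It was -0.027 without vehicle tumour 2 and -0.14 without TMP195 tumour 2. Pmaip1 encodes NOXA, which binds the survival protein MCL1. It measured 5.08, 4.97 and 5.15 under vehicle and 4.71, 5.36 and 5.04 under TMP195. The TMP195 group held both the lowest and the highest tumour, and the difference was -0.032 ± 0.17 (SE). The difference was -0.082 without vehicle tumour 2 and -0.19 without TMP195 tumour 2. Leaving out vehicle tumour 3 turned the sign of Pmaip1 to 0.011, and leaving out TMP195 tumour 1 turned it to 0.13.

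Eda2r is a receptor of the tumour necrosis factor receptor family that binds an isoform of ectodysplasin. It measured 4.43, 5.22 and 4.59 under vehicle and 4.64, 5.26 and 4.76 under TMP195. Tumour 2 of each group stood above the other 4 tumours, and these 2 differed from each other by 0.041. The group difference was 0.14 ± 0.25 (SE). It was 0.37 without vehicle tumour 2, and it turned to -0.021 without vehicle tumour 1 and to -0.050 without TMP195 tumour 2.

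Ccng1 and Trp53inp1 feed back on p53 and its ligase. Ccng1 encodes cyclin G, which recruits a phosphatase to Mdm2. It measured 10.07, 10.50 and 10.26 under vehicle and 10.12, 10.41 and 10.20 under TMP195. Tumour 2 was again the highest of each group, and the difference was -0.034 ± 0.14 (SE). It was -0.12 without TMP195 tumour 2, and its sign turned without vehicle tumour 2 (0.079) or TMP195 tumour 1 (0.028). Trp53inp1 encodes a stress protein that works with kinases acting on p53 and takes part in autophagy. It measured 9.33, 10.11 and 9.51 under vehicle and 9.82, 9.75 and 9.62 under TMP195. The TMP195 tumours lay close together (SD 0.10, n = 3) and inside the range of the vehicle tumours (SD 0.41, n = 3). The difference was 0.075 ± 0.20 (SE). It was 0.31 without vehicle tumour 2, 0.066 without TMP195 tumour 2 and 0.30 without both, and it turned to -0.086 without vehicle tumour 1.

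Zmat3, a zinc finger protein that binds RNA, had the largest difference of the set. It measured 6.0, 6.46 and 6.23 under vehicle and 6.26, 6.88 and 6.25 under TMP195. A single tumour, TMP195 tumour 2, stood 0.42 above the next. The group difference was 0.23 with a 95% interval of -0.25 to 0.71 (limma adjusted p = 1.00), and it was 0.35 without vehicle tumour 2 and 0.027 without TMP195 tumour 2. Phlda3 encodes a small protein that competes with the kinase AKT for membrane lipids. It measured 6.26, 6.35 and 6.24 under vehicle, a spread of 0.059 (SD, n = 3), and 5.94, 6.81 and 6.12 under TMP195, a spread of 0.46 (SD, n = 3). TMP195 tumour 2 was the highest of all 6 and the remaining TMP195 tumours were the lowest, so the difference of the means was 0.0055 ± 0.22 (SE). Without vehicle tumour 2 it was 0.039 and without TMP195 tumour 2 it was -0.25. Without vehicle tumour 1 or vehicle tumour 3 it was -0.0052 and -0.017.

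Mdm2 varied more between tumours than any other member. Its range over the 6 tumours was 1.14 on the log2 scale, or 2.21-fold, and its SD ranked at percentile 95.8 of all genes. It measured 8.99, 8.26 and 8.40 under vehicle and 8.42, 9.29 and 8.14 under TMP195. One tumour of each group was high, vehicle tumour 1 and TMP195 tumour 2, and the other 4 lay between 8.14 and 8.42. The group difference was 0.067 with a 95% interval of -0.70 to 0.83. It turned to -0.27 without TMP195 tumour 2, to -0.076 without vehicle tumour 2 and to -0.0097 without vehicle tumour 3.

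**Figure D2:**
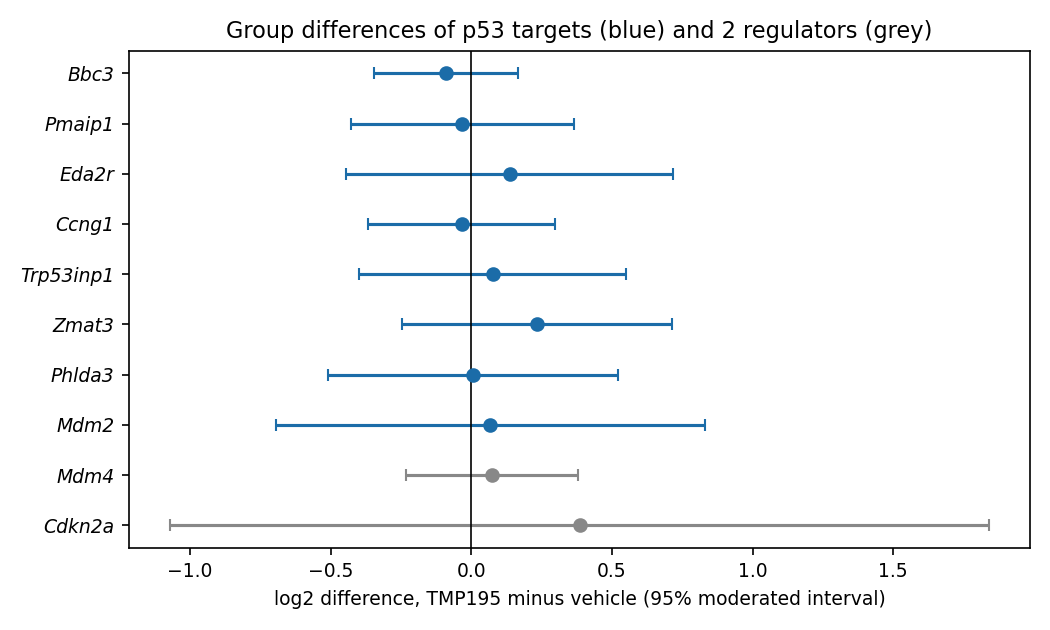
Log2 difference, TMP195 minus vehicle, with 95% moderated intervals from limma (3 tumours per group), for the 8 p53 targets in blue and for the regulators Mdm4 and Cdkn2a in grey. Every interval includes 0, from the narrowest in Bbc3 to the widest in Cdkn2a.

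The members shared a pattern across single tumours that did not follow dosing. TMP195 tumour 2 was the highest tumour for 5 of 8 members (25.4% of all genes) and vehicle tumour 2 for the other 3 (24.2% of all genes), so each member peaked in one of these 2 tumours, as did 49.6% of all genes. In 5 of 8 members, namely Bbc3, Eda2r, Ccng1, Zmat3 and Phlda3, both of these tumours stood above the remaining 4, a pattern found in 10.4% of all genes. Against the mean of the other 5 tumours, 8 of 8 members were above in TMP195 tumour 2, by a median of 0.45, where 51.4% of all genes were above and their median was 0.0076. In vehicle tumour 2 this was so for 6 of 8 members, with a median of 0.17, where 52.4% of all genes were above and their median was 0.013.

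At the other end, vehicle tumour 1 or TMP195 tumour 1 was the lowest tumour for 7 of 8 members (32.9% of all genes). Vehicle tumour 1 was the lowest for Eda2r, Ccng1, Trp53inp1 and Zmat3, TMP195 tumour 1 for Bbc3, Pmaip1 and Phlda3, and TMP195 tumour 3 for Mdm2 (11.6% of all genes). Mdm2 lay on the other side of the mean from Eda2r, Ccng1, Trp53inp1 and Zmat3 in vehicle tumours 1 and 2, and on the same side as Pmaip1 in both. In vehicle tumour 1 Mdm2 was 0.49 above the mean of the other tumours, with Pmaip1 at 0.035 and Bbc3 at 0.029, where Eda2r was -0.46, Trp53inp1 -0.43, Zmat3 -0.41 and Ccng1 -0.23. In vehicle tumour 2 Mdm2 was -0.38 and Pmaip1 -0.10, where Trp53inp1 was 0.51 and Eda2r 0.48. These single-tumour values have no replicate, and no test was made of them.

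**Figure D3:**
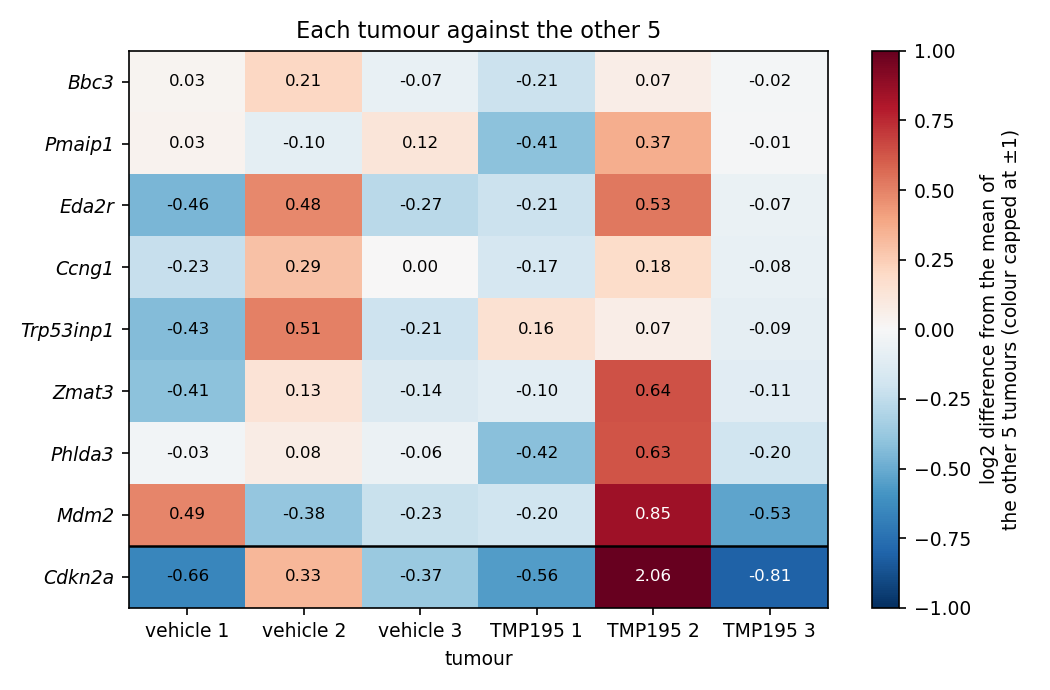
Log2 intensity of each tumour minus the mean of the other 5 tumours, for the 8 p53 targets and, under the line, Cdkn2a; red is above and blue below, and the colour is capped at 1 in either direction. TMP195 tumour 2 is above for all 8 targets, and Mdm2 differs in sign from Eda2r, Ccng1, Trp53inp1 and Zmat3 in vehicle tumours 1 and 2.

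The transcripts whose profile lay closest to that of Mdm2 were sought next, among 13955 genes at or above the 30th percentile of mean intensity. Likeness was the root mean square difference, over the 6 tumours, of log2 values centred on each gene's mean. Sike1 was closest at 0.016, followed by Idua at 0.045, Eogt at 0.050, Nfya at 0.062 and Supt7l at 0.067, and 14 genes lay within 0.1. Sike1, which encodes a suppressor of the kinase IKKE, measured 8.74, 8.01 and 8.10 under vehicle and 8.16, 9.0 and 7.87 under TMP195. Nfya, a subunit of the CCAAT-binding factor NF-Y, measured 9.56, 8.89 and 9.0 under vehicle and 8.95, 9.75 and 8.78 under TMP195. Like Mdm2, each was high in vehicle tumour 1 and TMP195 tumour 2. No other p53 target was among these 5 genes, but this measure could not have placed one there. It compares the size of the spread as well as the shape. The SD over the 6 tumours was 0.45 for Mdm2 and at most 0.34, in Eda2r, for the other members. With a spread so much smaller, none of them could come as close as these 5 genes, whatever its shape. These distances are a description, with no test.

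**Figure D4:**
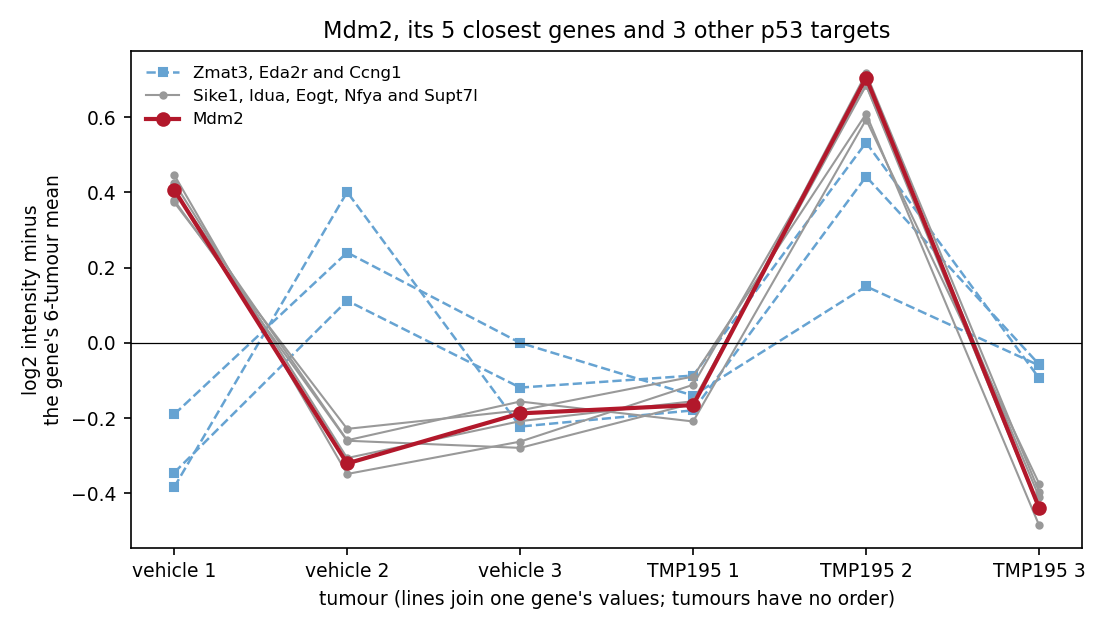
Log2 intensity minus each gene's mean over the 6 tumours, for Mdm2 in red, the 5 genes closest to it in grey, and Zmat3, Eda2r and Ccng1 in blue. Mdm2 and the grey lines are high in vehicle tumour 1 and TMP195 tumour 2, whereas the blue lines are at their lowest in vehicle tumour 1. The blue genes are taken from the 4 members that are lowest in that tumour. Pmaip1, Bbc3 and Phlda3, not drawn, differ there from the mean of the other 5 tumours by 0.035, 0.029 and -0.029.

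Regulators of p53 were then set beside its targets. Trp53 itself had no row that names it alone and was not analysed here. Of 18 measured regulators, 10 had a difference above 0 and 8 below, with a median of 0.024, and 0 passed in limma (0 at an unadjusted p under 0.05). The median was -0.012 without vehicle tumour 2 and 0.055 without TMP195 tumour 2. The groups did not overlap for 2 of 18 that were higher (3.47% of all genes) and 0 that were lower (3.21%). Rchy1, Chek1 and Chek2 are named for the smallest unadjusted p in this list. Mdm4, which binds and inhibits p53 beside Mdm2, measured 8.32, 8.03 and 8.25 under vehicle and 8.41, 8.34 and 8.08 under TMP195, a difference of 0.073 ± 0.13 (SE) that was -0.014 without vehicle tumour 2 and 0.042 without TMP195 tumour 2. Rchy1, a ubiquitin ligase of p53, lay between 8.26 and 8.31 under vehicle and between 8.34 and 8.53 under TMP195, without overlap (3.47% of all genes were higher without overlap), and differed by 0.14 ± 0.089 (SE, limma adjusted p = 1.00). The checkpoint kinase genes Chek1 and Chek2 differed by -0.33 ± 0.22 (SE) and -0.19 ± 0.16 (SE). Both had their lowest value in TMP195 tumour 2 and their highest in vehicle tumour 2, and Chek1 was -0.15 and Chek2 -0.048 without TMP195 tumour 2. Without vehicle tumour 2 they were -0.17 and -0.085.

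Cdkn2a was the regulator with the widest range. It measured 5.07, 5.89 and 5.31 under vehicle and 5.15, 7.33 and 4.94 under TMP195. TMP195 tumour 2 was 1.44 above the next tumour, or 2.71-fold, and the next was vehicle tumour 2. The SD of Cdkn2a ranked at percentile 99.3 of all genes. Its group difference was 0.38 with a 95% interval of -1.07 to 1.84, and it was 0.62 without vehicle tumour 2 and -0.38 without TMP195 tumour 2.

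Further p53 targets, a list of 37 genes that are not among the 10, were measured for 33. Their differences had a median of 0.016, 18 above 0 and 15 below, and 0 passed in limma (0 at an unadjusted p under 0.05). This median was 0.051 with vehicle tumour 2 left out and 0.078 with TMP195 tumour 3 left out, and it turned to -0.068 without TMP195 tumour 2 and to -0.010 without vehicle tumour 1. Of the 33 genes, 2 were higher and 1 was lower without overlap of the groups. Epha2, Sesn1 and Ddb2 had the smallest unadjusted p of this list and were named for that. Epha2, a receptor tyrosine kinase, differed by 0.43 ± 0.24 (SE), and by 0.15 without TMP195 tumour 2. Sesn1, a stress protein that restrains the growth kinase mTORC, was between 6.99 and 7.13 under vehicle and between 6.74 and 6.96 under TMP195, a difference of -0.18 ± 0.099 (SE, limma adjusted p = 1.00) without overlap of the groups (3.21% of all genes were lower without overlap). Ddb2, which recognises ultraviolet damage in DNA, was between 7.15 and 7.21 under vehicle and between 7.26 and 7.42 under TMP195. The difference was 0.14 ± 0.089 (SE), without overlap (3.47% of all genes were higher without overlap). By tumour, 18 of these 33 genes were highest in TMP195 tumour 2 (25.4% of all genes) and 10 in vehicle tumour 2 (24.2% of all genes). In TMP195 tumour 2, 28 of 33 lay above the mean of the other tumours, with a median of 0.19. Of all genes 51.4% did, with a median of 0.0076.

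The BCL2 family, on which PUMA and NOXA act, had 12 measured members with a median difference of 0.023, 7 above 0 and 5 below, and 0 passed in limma (0 at an unadjusted p under 0.05). Without vehicle tumour 2 the median was 0.047 and without TMP195 tumour 2 it was 0.0013. Groups without overlap were found for 1 of 12 genes that was higher (3.47% of all genes) and 1 that was lower (3.21%). The genes named next were picked for the smallest unadjusted p in this list. Bik, a pro-death member, lay between 6.18 and 6.30 under vehicle and between 6.41 and 6.52 under TMP195. These groups did not overlap (3.47% of all genes were higher without overlap), and the difference was 0.20 ± 0.088 (SE, limma adjusted p = 1.00). Bmf, another pro-death member, measured 8.29, 8.81 and 8.41 under vehicle and 8.45, 6.98 and 8.44 under TMP195. TMP195 tumour 2 alone was low, and the difference of -0.55 ± 0.40 (SE) was -0.058 without it. Bcl2l2, a survival member, differed by 0.17 ± 0.14 (SE), by 0.076 without vehicle tumour 2 and by 0.070 without TMP195 tumour 1.

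Cell cycle genes were read as the processes that p53 targets restrain. Of 14 cyclins, cyclin-dependent kinases and partners that act around the start of DNA replication, 11 had a difference below 0 (median -0.057). Of all 19937 genes, 10074 lay below 0. From this list 0 passed in limma (0 at an unadjusted p under 0.05). The median was -0.10 without vehicle tumour 1, -0.11 without vehicle tumour 3, -0.037 without vehicle tumour 2 and -0.020 without TMP195 tumour 2, and it turned to 0.046 without tumour 2 of both groups. Ccnd1, which encodes a D-type cyclin, measured 9.71, 9.54 and 9.63 under vehicle and 9.69, 10.62 and 9.82 under TMP195. TMP195 tumour 2 stood 0.81 above the next tumour, and the difference of 0.42 ± 0.24 (SE) was 0.13 without it. Ccne2, an E-type cyclin, differed by -0.23 ± 0.17 (SE) and Cdkn1c, an inhibitor related to the product of Cdkn1a, by -0.21 ± 0.16 (SE). Without vehicle tumour 2 Ccne2 was -0.098, and without TMP195 tumour 2 Cdkn1c was -0.056.

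Genes of later cell cycle stages and mitosis were at their lowest in TMP195 tumour 2 and at their highest in vehicle tumour 2. The p53 targets lay above the mean of the other tumours for 8 of 8 members in TMP195 tumour 2. In vehicle tumour 2 this held for 6 of 8, and Mdm2 (-0.38) and Pmaip1 (-0.10) lay below. Against the mean of the other tumours, the members' median was 0.45 in TMP195 tumour 2 and 0.17 in vehicle tumour 2. For the further p53 targets it was 0.19 and 0.11. Of 12 measured genes, 11 were lowest in TMP195 tumour 2 (22.4% of all genes) and 10 were highest in vehicle tumour 2 (24.2% of all genes). The list mean was 7.94, 8.35 and 7.89 under vehicle and 7.94, 7.50 and 8.16 under TMP195. Against the mean of the other tumours the median was -0.64 in TMP195 tumour 2 and 0.53 in vehicle tumour 2. Between the dosing groups, 11 of 12 lay below 0 with a median of -0.22, where 10074 of all 19937 genes lay below 0. Of the 12 genes, 0 passed in limma (0 at an unadjusted p under 0.05). The mitotic genes Bub1b, Cdc20 and Plk1 differed by -0.34 ± 0.29, -0.32 ± 0.23 and -0.30 ± 0.26 (SE), by -0.15, -0.15 and -0.11 without vehicle tumour 2, and by -0.045, -0.096 and -0.036 without TMP195 tumour 2. Leaving out vehicle tumour 2 gave a median of -0.060, leaving out TMP195 tumour 2 gave -0.030, and leaving out both gave 0.15.

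**Figure D5:**
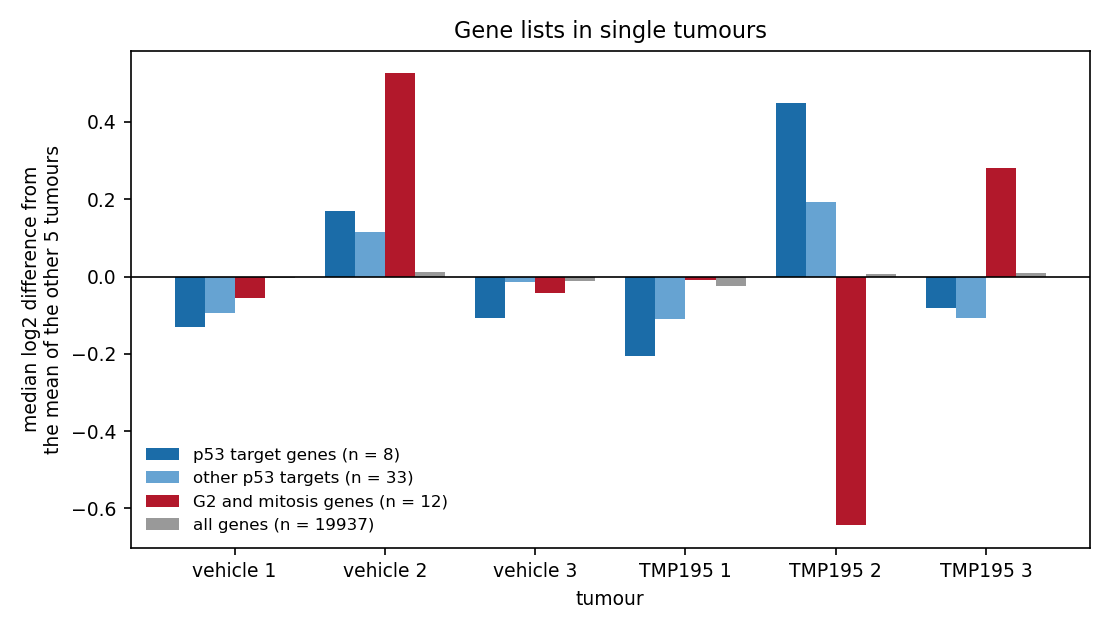
Median, over the genes of a list, of the log2 difference between a tumour and the mean of the other 5 tumours, for the 8 p53 targets, 33 further p53 targets, 12 genes of late cell cycle and mitosis, and all 19937 genes. Both p53 target lists are highest in TMP195 tumour 2, where the mitosis list has its lowest value, -0.64, and all lists are above 0 in vehicle tumour 2.

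The tumours that carried the highest p53 target levels also differed in transcripts of other tissues. Skeletal muscle markers, 12 of 12 measured, were highest in vehicle tumour 2, where their summed intensity was 4280 against 300.3 to 327.5 in the other vehicle tumours and 322.8 to 436.7 in the TMP195 tumours. Adipocyte markers, 9 of 10 measured, had summed intensities of 1379 to 6521 under vehicle and 311.9 to 4302 under TMP195. The lowest sum of each group was in tumour 2, and 8 of 9 markers were lowest in TMP195 tumour 2. TMP195 tumour 3, at 985.7, also lay below vehicle tumour 2. Fibroblast markers, 9 of 9 measured, summed to 7512 to 11540 under vehicle and 6867 to 10820 under TMP195. The lowest sum of each group was again in tumour 2, where 0 of 9 markers lay above the mean of the other 5 tumours. Their median difference from that mean was -0.34 in vehicle tumour 2 and -0.52 in TMP195 tumour 2. T cell markers, 9 of 10 measured, summed to 180.2 to 213.4 under vehicle and 182.5 to 257.5 under TMP195, with the highest sum in TMP195 tumour 2. Of these, 3 muscle, 1 adipocyte and 3 T cell markers fell under the 30th percentile of mean intensity. Macrophage markers, 10 of 10 measured, summed to 3375 to 3916 under vehicle and 3140 to 3401 under TMP195. Between the groups, 10 of 10 lay below 0 with a median of -0.13, where 10074 of all 19937 genes lay below 0. Of these markers, 0 passed in limma (1 at an unadjusted p under 0.05). The summed intensities ranged from 839.1 to 1078 for 8 endothelial markers and from 78.7 to 94.6 for 5 of 6 B cell markers over the 6 tumours. The part of these tissues in the p53 target levels was not tested.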

How the data were processed

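RNA of 6 tumours was measured on Affymetrix arrays. Per the submitters' processing notes, the authors made the deposited signal intensity values with RMA in Affymetrix Power Tools. The sources used here do not name versions, filters or a genome build. The scale and centring are not stated; the values were taken as linear, because all were above 0 with array medians between 44.8 and 46.4. RMA as usually run equalises the arrays' distributions, so a shift of most genes would not show.

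Of 27359 probe sets, 21784 had 1 gene symbol in the platform annotation, 1620 several and 3955 none. Entrez IDs matched RefSeq (GRCm38.p6) for 21693, and 0 symbols changed. The brightest probe set stood for each of 19937 genes, with no filter on intensity. The fit on log2 intensities used limma 3.58.1 under R 4.3.3 (lmFit, eBayes with a constant prior of 2.93 degrees of freedom beside 4 residual ones, two-sided), without covariates, and the pipeline was tested on simulated data. For a single gene, an exact permutation of 3 against 3 tumours cannot go below p = 0.10. Tables and plots used Python 3.11.15, pandas 2.3.3, numpy 2.4.6 and matplotlib 3.10.9.

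The named genes were the 8 members, Mdm4 and Cdkn2a, up to 3 genes of each other list by smallest unadjusted p, and the 5 genes closest to the member with the largest SD. The members and lists were chosen with earlier results of these data known. Lists are described by counts and medians without a test. Alternatives tried were a block for the replicate number, another prior, median centring, cyclic loess, an intensity filter, a pseudocount of 16, every probe set, array weights and leaving out tumours.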

Additional observations from a re-analysis of the deposited data

How the results depend on the processing

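No alternative gave a p53 target an adjusted p under 0.05 in limma, with values from 0.963 to 1.00 over 15 alternatives, and 0 of all genes passed in any of them. Deviations of same-numbered tumours from their group means correlated at -0.21, -0.063 and -0.097 across genes. These values cannot decide whether the replicate number marks a pairing, because the deviations sum to 0 within each group. With the replicate number as a block, 397 genes had an unadjusted p under 0.05 in limma, beside 502 without, and the members' differences are the same by construction. This count was 243 with dim genes left out, where fewer genes were tested, 938 with array weights, and 503 to 669 with each tumour left out in turn.

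The signs of the 8 members were kept under median centring, cyclic loess and the pseudocount. Under the other prior, the intensity filter and every probe set, the members' differences are again the same by construction. Each member has a single row that passes the filter, and the prior does not enter the difference. Array weights turned Mdm2 to -0.10, Phlda3 to -0.12, Cdkn2a to -0.0092, Plk1 to 0.00084, Eogt to -0.024, Idua to -0.026, Nfya to -0.13, Sike1 to -0.095 and Supt7l to -0.12. The median was then -0.063 for the members, -0.015 for the further p53 targets and 0.0027 for the mitosis genes. Leaving out tumour 2 of both groups, Mdm2 was -0.41, Phlda3 -0.22, Mdm4 -0.044, Cdkn2a -0.14, Chek1 0.011, Chek2 0.053, Bmf 0.094, Cdkn1c 0.013, Bub1b 0.15, Cdc20 0.074, Plk1 0.15, Eogt -0.33, Idua -0.35, Nfya -0.42, Sike1 -0.41 and Supt7l -0.38. The median was then -0.042 for the members, 0.055 for the BCL2 family, 0.15 for the mitosis genes, -0.0084 for the regulators, 0.046 for the cyclins and kinases and -0.017 for the further p53 targets. The cause of these shifts was not tested.

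With each tumour left out in turn, the members' median ran from -0.13 (without TMP195 tumour 2) to 0.15 (without TMP195 tumour 1), that of the regulators from -0.012 to 0.055, that of the BCL2 family from 0.0013 to 0.047, that of the further p53 targets from -0.068 (without TMP195 tumour 2) to 0.078 (without TMP195 tumour 3), that of the cyclins and kinases from -0.11 to -0.020 and that of the mitosis genes from -0.37 to -0.030. Differences ran from -0.27 to 0.30 for Mdm2, -0.25 to 0.18 for Phlda3, -0.19 to 0.13 for Pmaip1, -0.14 to 0.079 for Ccng1, -0.086 to 0.31 for Trp53inp1, -0.050 to 0.37 for Eda2r, -0.014 to 0.17 for Mdm4 and -0.38 to 0.82 for Cdkn2a. They ran from -0.22 to 0.33 for Eogt, -0.21 to 0.36 for Idua, -0.29 to 0.21 for Nfya, -0.27 to 0.29 for Sike1 and -0.28 to 0.27 for Supt7l. Bbc3, from -0.14 to -0.024, and Zmat3, from 0.027 to 0.35, kept their signs in these fits.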
